A study of Homo sapiens with 24 samples.

Results

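ABBV-744 at 500 nM was compared with DMSO, the solvent, in HepG2, a line derived from a human hepatocellular carcinoma. The comparison rests on 6 of the 24 RNA sequencing libraries of the series, chosen by their titles: 3 from cells given ABBV-744 500 nM and 3 from cells given DMSO, none of them with interferon gamma (IFNg). The series holds 8 groups of 3 libraries, and the others are ABBV-744 at 50 nM, ABBV-075 at 50 nM, IFNg alone, and IFNg joined with either dose of ABBV-744 or with ABBV-075 at 50 nM. All cells were of 1 line, grown in serum-containing medium. The length of the ABBV-744 treatment is not given in the sources used here, nor is the dose of IFNg. The study's methods call its samples independent experimental replicates but do not describe the ABBV-744 treatments, and nothing in the labels says whether the 3 libraries of a group came from separate cultures. The p-values therefore measure the spread between these libraries, which may be technical.

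ABBV-744 is an inhibitor of the bromodomain and extraterminal domain (BET) proteins, which read acetylated histones through a pair of bromodomains and bring the elongation factor P-TEFb to promoters and enhancers. It binds the second bromodomain in preference to the other, whereas ABBV-075 binds both. BET inhibitors release P-TEFb from HEXIM1 and the 7SK RNA, and HEXIM1 itself is a widely used marker of their action in cells. In liver-derived cells, genes with large enhancers, such as those for plasma proteins and lipid metabolism, are among the known users of BET proteins.

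The files held 24315240 to 26754342 reads for each ABBV-744 500 nM library and 24742899 to 25888563 for each DMSO library. Reads counted on the strand of a gene numbered 3321988 to 3520912 with ABBV-744 500 nM and 3706857 to 4304103 with DMSO. They were 13% to 13.8% of all reads with ABBV-744 500 nM and 15% to 16.8% with DMSO, and reads that aligned to several places, which were not counted, were 64% to 68.1% and 56% to 61%. The groups did not overlap in either share (exact permutation p = 0.1, two-sided, the smallest that 3 libraries against 3 can give). The part of these shares in the changes below was not tested. HepG2 identity was clear in all 6 libraries: each of 10 liver markers was present, with 52 counts or more, and their summed counts were 76940 to 98484 with DMSO and 68539 to 80352 with ABBV-744 500 nM. PTPRC and CD3E (leukocytes), COL1A2 and LUM (fibroblasts), KDR (endothelium) and RBFOX3 and SNAP25 (neurons) had no count in any of the 6 libraries. LYZ, listed here as a leukocyte marker, had 4705 to 7873 counts, and no other of the 16 markers of other cell types passed 33 counts. ABBV-744 500 nM replicate 2 stood apart from the other ABBV-744 500 nM libraries on the second principal component, which held 20.7% of the variance.

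On a scale that sets the median log2 fold change of all genes to about 0, most called changes with ABBV-744 500 nM were small, and large changes were mostly decreases. Of 11124 genes tested with edgeR's quasi-likelihood test, 832 (7.48%) were higher and 868 (7.80%) were lower with an adjusted p (Benjamini-Hochberg) no higher than 0.05. With scaling by library size only the split was 475 higher and 1067 lower. The median log2 fold change of the called genes was 0.52 for those higher and -0.57 for those lower, and 779 and 729 of them respectively changed by less than 1 on the log2 scale. Only 3 genes (0.0270%) were higher and 35 (0.315%) lower past both thresholds, that adjusted p and a log2 fold change of 1.5 or more in size. Levels are given as CPM (counts scaled to 1e6 per library) after TMM scaling over the 6 libraries, and fold changes on the log2 scale with their standard error (SE). In bulk RNA, fewer cells of a kind and less RNA per cell cannot be told apart.

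In all 38 genes past both thresholds the groups did not overlap. The genes were chosen on the same 6 libraries, so this largely follows from the thresholds and is no separate support. Over all genes tested, the groups did not overlap for 1802 (16.2%) with ABBV-744 500 nM higher and 1763 (15.8%) with it lower. Counts were low for most of the 38 genes, and in 29 of them no library reached 50 counts. When each library was left out in turn, 21 of the 38 stayed past both thresholds in all 6 fits, and 30 kept an adjusted p of at most 0.05 in all 6. The numbers called at an adjusted p of at most 0.05 fell to 371 higher and 422 lower without DMSO replicate 2, to 422 and 452 without DMSO replicate 3, and to 489 and 514 without ABBV-744 500 nM replicate 3. Without ABBV-744 500 nM replicate 2, the library that stood apart, 825 were higher and 915 lower, and 7 and 63 of them were past both thresholds.

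**Figure D1:**
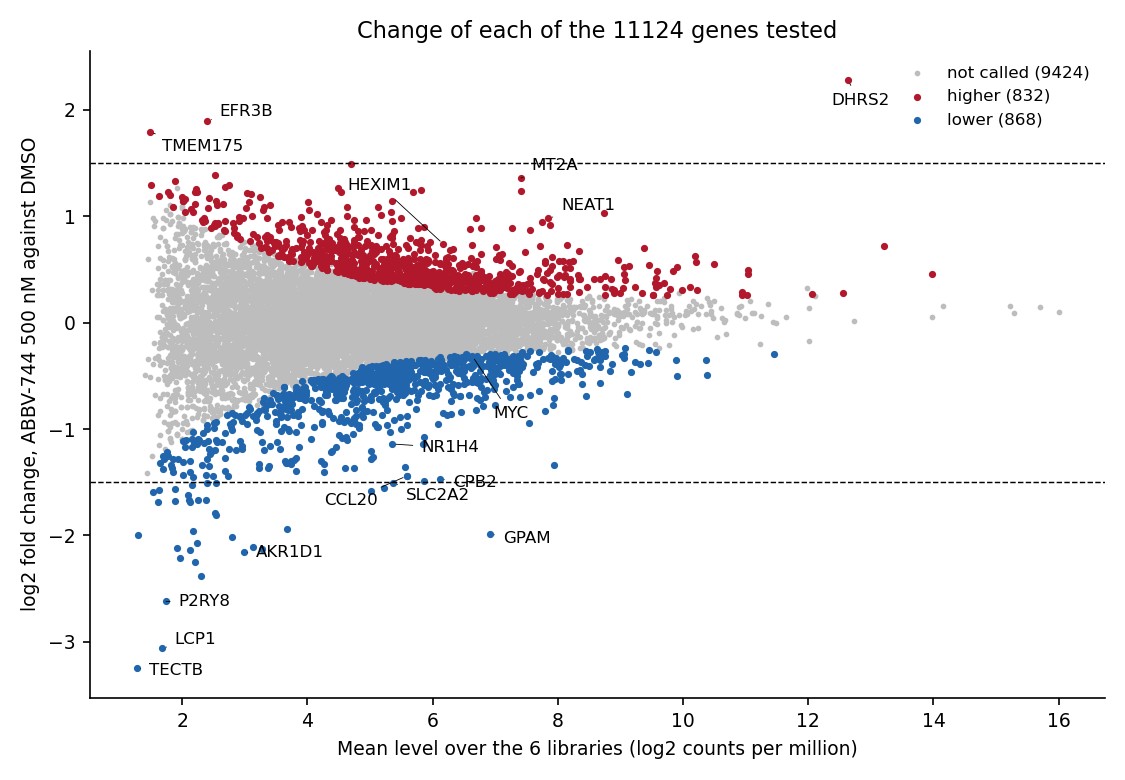
Log2 fold change of each of the 11124 genes tested (ABBV-744 500 nM against DMSO) against its mean log2 CPM over the 6 libraries. Red and blue points are the 832 higher and 868 lower genes at an adjusted p of at most 0.05, grey points are not called, and dashed lines mark log2 fold changes of 1.5 in size. DHRS2 is the only gene past the upper line at a high level, and GPAM stands lowest among genes of medium level.

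DHRS2, GPAM and HEXIM1 are the named markers of the comparison. DHRS2 encodes a short-chain dehydrogenase that reduces dicarbonyl compounds. It had 2248, 2140 and 2108 CPM in the DMSO libraries and 9976, 11092 and 10552 CPM in the ABBV-744 500 nM libraries. The groups were far apart, and DHRS2 rose 4.87-fold (log2 fold change 2.28, SE 0.09, edgeR adjusted p = 2e-18). It was the gene with the largest increase, although it was already highly expressed in DMSO. Its GENCODE gene lies on chromosome 14, 23630115 to 23645639, plus strand (GRCh38).

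GPAM encodes the mitochondrial acyltransferase that starts glycerolipid synthesis from glycerol 3-phosphate. Its levels were 160, 214 and 194 CPM with DMSO against 55.5, 38.1 and 49.4 CPM with ABBV-744 500 nM. Every treated library lay below every DMSO library, and GPAM fell 3.96-fold (log2 fold change -1.99, SE 0.12, edgeR adjusted p = 6.02e-13). Of the 35 genes lower past both thresholds it was the most strongly expressed. The gene spans chromosome 10, 112149865 to 112215377, on the minus strand.

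HEXIM1 encodes the protein that holds P-TEFb inactive together with the 7SK RNA. The DMSO libraries gave 54.4, 57.3 and 50.9 CPM and the ABBV-744 500 nM libraries 94.4, 85.7 and 91.2 CPM. HEXIM1 rose 1.67-fold without overlap of the groups (log2 fold change 0.74, SE 0.11, edgeR adjusted p = 1.89e-05). The gene lies on chromosome 17, 45148475 to 45152099, plus strand. Leaving out any 1 library kept the log2 fold change of HEXIM1 between 0.70 and 0.79, that of DHRS2 between 2.24 and 2.32 and that of GPAM between -2.11 and -1.85, each with the call kept in all 6 fits.

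Promoter sequences of the 3 markers, of MT2A (the strongest metallothionein increase) and of CXCL8 (the strongest chemokine decrease) are shown. All but that of GPAM hold TATAAA. They do not stand for the genes tested, of whose windows 6.09% held these letters. Each stretch is the 100 bases before the gene's RefSeq start in GRCh38.p14, read 5′ to 3′ on the gene's strand, with TATAAA (or its reverse complement) in capitals.
DHRS2 (chr14:23630015-23630114, plus strand): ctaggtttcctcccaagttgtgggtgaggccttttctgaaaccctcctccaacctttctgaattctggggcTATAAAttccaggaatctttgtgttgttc
HEXIM1 (chr17:45148375-45148474, plus strand): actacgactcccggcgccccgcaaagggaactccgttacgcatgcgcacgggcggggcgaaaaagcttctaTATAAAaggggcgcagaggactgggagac
MT2A (chr16:56608484-56608583, plus strand): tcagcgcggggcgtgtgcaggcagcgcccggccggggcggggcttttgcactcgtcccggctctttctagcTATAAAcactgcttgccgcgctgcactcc
CXCL8 (chr4:73740469-73740568, plus strand): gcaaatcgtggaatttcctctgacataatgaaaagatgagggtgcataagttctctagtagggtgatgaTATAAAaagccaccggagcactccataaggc
GPAM (chr10:112183766-112183865, minus strand): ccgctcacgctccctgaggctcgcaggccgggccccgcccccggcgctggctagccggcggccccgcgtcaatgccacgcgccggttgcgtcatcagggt

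TATAAA began 29 bases before the start in DHRS2, HEXIM1 and MT2A and 31 bases before it in CXCL8. These letters are not in the stretch shown for GPAM. The RefSeq starts of CXCL8 and GPAM lie inside their longer GENCODE genes, and the TATAAA of CXCL8 lies past its GENCODE start. The DHRS2 window of 300 bases (250 before the start to 50 after it) held no CG dinucleotide, that of CXCL8 held 4, and those of HEXIM1, MT2A and GPAM held 32, 37 and 23. RefSeq windows were matched to 8878 of the genes tested, often with several windows for a gene, and were searched on both strands. TATAAA was in 6.09% of the 12863 windows of all genes tested, in 7.56% of the 860 windows of genes called higher and in 9.12% of the 1151 windows of genes called lower. CCAAT was in 35.6%, 41% and 34% of the same windows, and TGAGTCA, the letters of an AP-1 motif, in 3.22%, 2.21% and 5.21%. Among the 60 windows of 31 genes lower past both thresholds, 10 held TATAAA and 8 held TGAGTCA. The median GC content of the windows was 65% for all genes tested, 66.7% for those called higher, 62.3% for those called lower and 46.8% for those lower past both thresholds. These shares are descriptions without a test, since windows of 1 gene overlap in sequence.

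Past the upper threshold, DHRS2 was joined by EFR3B and TMEM175, both at low levels. EFR3B, a membrane anchor of the phosphatidylinositol 4-kinase PI4KA, had 2.15, 2.24 and 1.92 CPM with DMSO and 6.72, 7.17 and 9.88 CPM with ABBV-744 500 nM, from 8 to 34 counts per library. It rose 3.73-fold (log2 fold change 1.90, SE 0.33, edgeR adjusted p = 0.000153) and kept its call whichever library was left out. TMEM175, a lysosomal ion channel, rose by a log2 fold change of 1.79 (SE 0.46, edgeR adjusted p = 0.00742), from 1.08, 0.448 and 1.68 CPM to 2.92, 3.91 and 4.36 CPM. Its call was lost without DMSO replicate 2 (adjusted p = 0.0766) or without ABBV-744 500 nM replicate 3 (adjusted p = 0.0529).

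The 10 largest decreases were in genes of few counts and of different roles. TECTB, a tectorial membrane protein gene of the inner ear, had 12, 12 and 15 counts with DMSO and 1, 2 and 0 with ABBV-744 500 nM. LCP1, an actin-bundling protein best known from blood cells, had 17, 20 and 18 counts with DMSO and 2, 1 and 2 with ABBV-744 500 nM. Both were at the floor of 3 counts per library with ABBV-744 500 nM, so that TECTB was at least 3.49-fold lower and LCP1 at least 4.91-fold lower. TECTB had too few counts to be tested in 2 of the 6 fits that leave out 1 library.

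P2RY8, a G protein-coupled receptor, fell from 3.5, 4.48 and 5.52 CPM to 0, 1.95 and 0.29 CPM (log2 fold change -2.62, SE 0.55). LAMA3, a laminin chain of the basement membrane, fell by 2.38 on the log2 scale (SE 0.42), and SLC17A2, a member of the phosphate transporter family, fell by 2.25 (SE 0.41). The lncRNA CCAT1 fell from 17, 24 and 24 counts to 6, 2 and 3 counts. AKR1D1 and BAAT, both of bile acid metabolism, and CLDN2, a tight junction claudin, fell with log2 fold changes of -2.16, -2.14 and -2.13. TNFSF4, the ligand of OX40, fell from 15, 31 and 15 counts to 5, 2 and 4 (log2 fold change -2.12, SE 0.45). From P2RY8 to TNFSF4 the edgeR adjusted p ranged from 2.98e-06 for CLDN2 to 0.00135 for TNFSF4, and all these 8 calls held whichever library was left out.

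**Figure D2:**
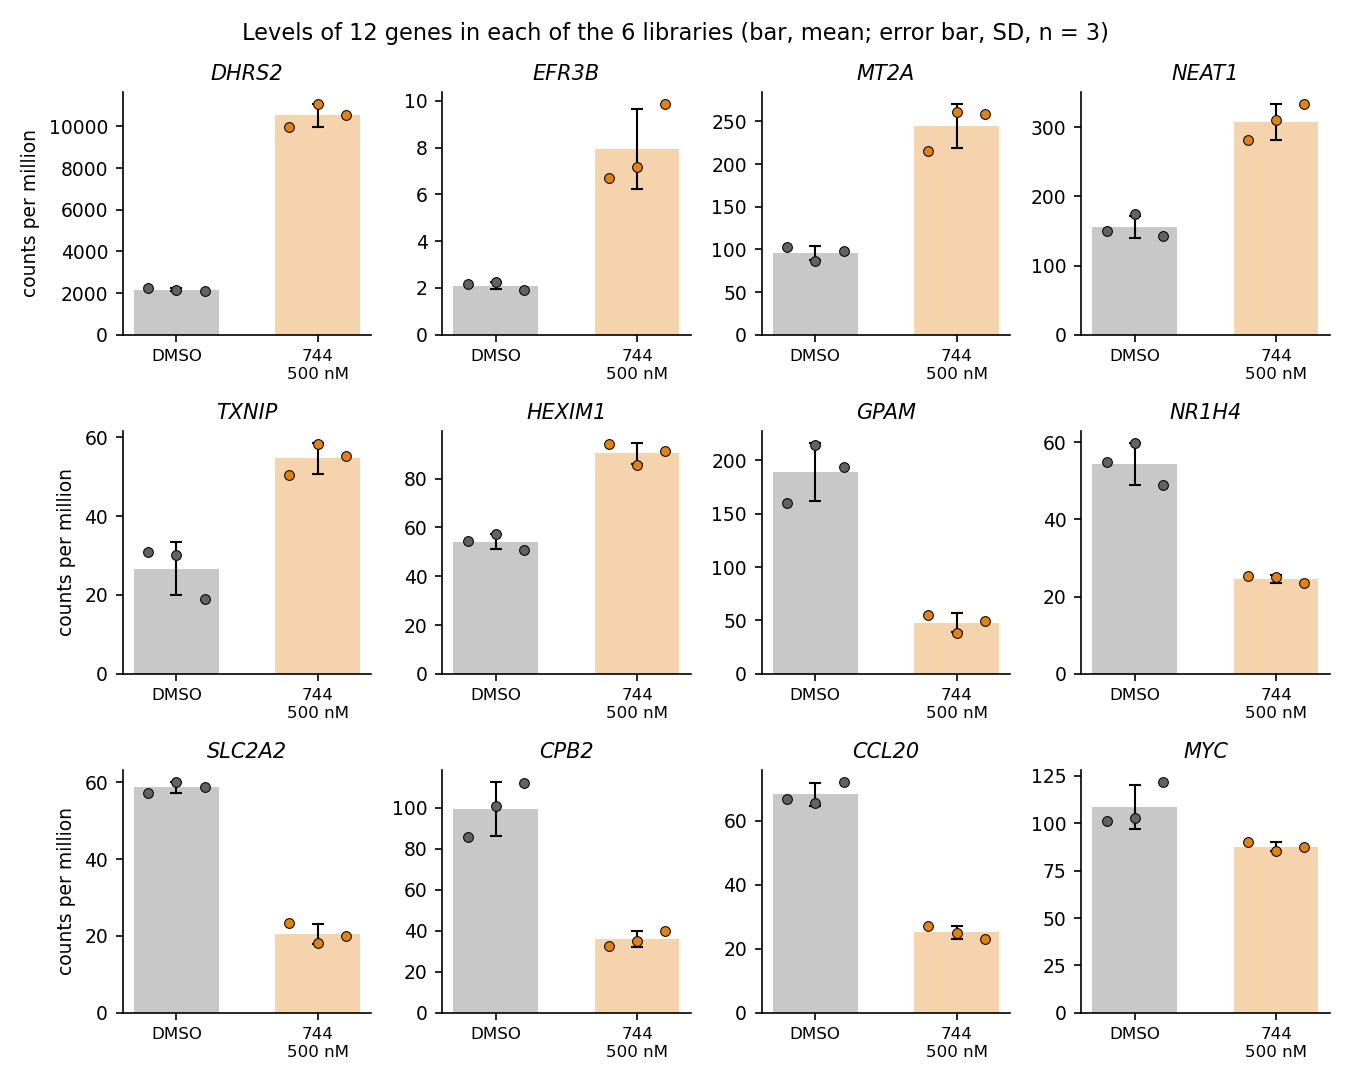
Level (CPM) of 12 genes in each DMSO and ABBV-744 500 nM library (points), with the mean (bar) and SD over 3 libraries (error bar); each panel has its own axis from 0. The groups do not overlap in any panel, DHRS2 has the highest level of the 12, and MYC has the smallest separation, from 85.3 to 90 CPM with ABBV-744 500 nM against 101 to 122 CPM with DMSO.

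The gene lists were compared with the 7.48% higher and 7.80% lower of all genes tested and with their median log2 fold change of 0.00. Among the BET proteins and regulators of P-TEFb, 7 of 21 tested members rose and 2 fell, with a median log2 fold change of 0.16. The 7 increases became 2 without DMSO replicate 2, and 4 without DMSO replicate 1, DMSO replicate 3 or ABBV-744 500 nM replicate 3. DESeq2 called 3 members higher and 1 lower. BRD2 rose from 107, 99.1 and 107 CPM to 175, 166 and 147 CPM (log2 fold change 0.64, SE 0.10, edgeR adjusted p = 2.76e-05). BRD3 had a log2 fold change of -0.04 (SE 0.22, adjusted p = 0.932). LARP7, the protein that stabilizes the 7SK RNA, moved the other way to HEXIM1: it fell by 1.11 on the log2 scale (SE 0.34, adjusted p = 0.0233), at 5 to 30 counts per library. The LARP7 call was lost without DMSO replicate 1, DMSO replicate 2, ABBV-744 500 nM replicate 2 or ABBV-744 500 nM replicate 3, with adjusted p from 0.0643 to 0.102. SERTAD1, a regulator of cyclin-dependent kinase 4, rose by 0.81 (SE 0.25, adjusted p = 0.0234), and lost its call without DMSO replicate 1 (0.135) or DMSO replicate 2 (0.0571).

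MYC, the oncogene most often followed under BET inhibitors, changed little. It had 101, 103 and 122 CPM with DMSO and 90, 85.3 and 87.7 CPM with ABBV-744 500 nM, and fell by 0.31 on the log2 scale (SE 0.10, edgeR adjusted p = 0.0397). The adjusted p became 0.0871 without DMSO replicate 2, 0.283 without DMSO replicate 3 and 0.118 without ABBV-744 500 nM replicate 3. In the MYC network, 2 of 11 tested members rose (MLXIP, log2 fold change 0.64, and MLXIPL, 0.50) and MYC alone fell, with a list median of 0.28. With DESeq2, 2 members were higher and 0 lower, so MYC was not called lower. Both MLXIP and MLXIPL encode glucose-responsive partners of MLX rather than MYC's own partner. MLXIPL lost its call without DMSO replicate 2 (adjusted p = 0.0858).

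Among FXR and bile acid genes, 5 of 16 tested members fell and 1 rose, with a median log2 fold change of -0.34. NR1H4 encodes FXR, the nuclear receptor for bile acids. It fell 2.21-fold, from 54.9, 59.7 and 48.8 CPM to 25.4, 25.1 and 23.5 CPM (log2 fold change -1.14, SE 0.14, edgeR adjusted p = 6.57e-07). AKR1D1, a steroid reductase of bile acid synthesis, fell from 13.5, 10.1 and 10.8 CPM to 3.51, 1.63 and 2.32 CPM (log2 fold change -2.16, SE 0.31, adjusted p = 1.1e-05). BAAT, which joins bile acids to glycine or taurine, had 15 to 32 counts with DMSO and 3 to 6 with ABBV-744 500 nM. SLC51B, a subunit of the basolateral bile acid exporter, fell by 1.19 on the log2 scale (SE 0.29, adjusted p = 0.00593, or 0.055 without ABBV-744 500 nM replicate 3). The member that rose was NR0B2, the FXR target SHP, by a log2 fold change of 0.32 (SE 0.11, adjusted p = 0.0417), and this call held only in the fit without ABBV-744 500 nM replicate 1, with adjusted p from 0.051 to 0.194 in the other fits that leave out 1 library. After a correction for GC content 0 members were higher and 9 lower. CYP7A1, the rate-limiting enzyme of bile acid synthesis, had too few counts to be tested, with 15, 12 and 2 counts in the DMSO libraries and 0 in each ABBV-744 500 nM library. Of the 25 genes of the list, 9 had too few counts to be tested.

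Genes of fatty acid and triglyceride metabolism changed in both directions, with 10 of 39 tested members lower (6 without DMSO replicate 3), 4 higher and a median of -0.09. Beside GPAM, CD36, a fatty acid transporter, fell from 2.96, 2.69 and 3.12 CPM to 1.46, 0.326 and 0.29 CPM (log2 fold change -2.0, SE 0.54, edgeR adjusted p = 0.0108), from 11 to 13 counts in DMSO. CD36 had too few counts to be tested in 2 of the 6 fits that leave out 1 library, and without ABBV-744 500 nM replicate 3 its adjusted p was 0.0852. PLIN2, which coats lipid droplets, fell from 280, 281 and 283 CPM to 151, 165 and 157 CPM (log2 fold change -0.83, SE 0.09, adjusted p = 6.27e-08). PNPLA2, the triglyceride lipase ATGL, rose from 10.5, 7.16 and 12.7 CPM to 20.5, 24.8 and 21.2 CPM (log2 fold change 1.13, SE 0.20, adjusted p = 0.000224). FASN, the fatty acid synthase, rose by 0.58 on the log2 scale (SE 0.09). Of the cholesterol synthesis genes, 3 of 26 fell and 3 rose (median -0.04, with 0 increases without DMSO replicate 2 and 1 without DMSO replicate 3), INSIG2 with the largest decrease, by 0.66. Apolipoprotein genes were likewise split, with 3 of 15 lower and 3 higher (median 0.01): APOL1 fell by 0.91, while CLU rose by 0.53 and APOA1 by 0.46. After the GC correction the split was uneven, with 6 apolipoprotein genes lower and 3 higher (median -0.11).

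Plasma protein genes of the liver were called lower more often than higher, in numbers that depended on single libraries. Complement genes were lower in 7 of 19 tested members and higher in 1 (median -0.27), and without DMSO replicate 2 the 7 became 3. MBL2, the mannose-binding lectin, fell by 1.79 on the log2 scale (SE 0.37, edgeR adjusted p = 0.00125). C4BPB, a chain of the C4b-binding protein, fell from 31.2, 35.6 and 32.4 CPM to 12.6, 13.4 and 12.5 CPM (log2 fold change -1.37, SE 0.17). C3, the central complement component, was the member that rose, by 0.42. Coagulation and fibrinolysis genes were lower in 4 of 21 and higher in 2 (median -0.20), with 2 lower without DMSO replicate 2, DMSO replicate 3 or ABBV-744 500 nM replicate 3. CPB2, the antifibrinolytic carboxypeptidase, fell 2.77-fold, from 85.6, 101 and 112 CPM to 32.7, 34.8 and 40.1 CPM (log2 fold change -1.47, SE 0.13, adjusted p = 8.5e-10). Acute-phase and carrier protein genes were lower in 7 of 22 and higher in 2 (median -0.17), with 4 lower and 0 higher without DMSO replicate 2 or ABBV-744 500 nM replicate 3, and 5 and 0 without DMSO replicate 3. ITIH1, LEAP2 and CP, the gene of ceruloplasmin, fell with log2 fold changes of -1.59, -1.43 and -1.05. The ITIH1 call was lost without DMSO replicate 2 (adjusted p = 0.0867) or ABBV-744 500 nM replicate 3 (0.0816). ALB, the albumin gene, fell by only 0.29 (SE 0.10, adjusted p = 0.0431), with overlapping groups of 2683 to 3312 CPM in DMSO and 2110 to 2743 CPM with ABBV-744 500 nM, and SERPINA1 rose by 0.28. The ALB call was lost without DMSO replicate 2, DMSO replicate 3, ABBV-744 500 nM replicate 2 or ABBV-744 500 nM replicate 3 (adjusted p from 0.0689 to 0.238), and the SERPINA1 call without DMSO replicate 2, DMSO replicate 3 or ABBV-744 500 nM replicate 3 (from 0.115 to 0.136).

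Of the 22 hepatocyte transcription factor genes tested, 2 rose and 2 fell, near the shares over all genes, and their median was -0.03. CEBPA rose by 0.51 on the log2 scale and HNF4A by 0.34, and HNF4G fell by 0.67 and NR1I2 by 0.61. The HNF4A call was lost without DMSO replicate 2 (adjusted p = 0.0905), that of HNF4G without DMSO replicate 2 or 3 or ABBV-744 500 nM replicate 1 or 3 (0.0546 to 0.141), and that of NR1I2 without DMSO replicate 1, 2 or 3 or ABBV-744 500 nM replicate 1 (0.0533 to 0.111).

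In amino acid metabolism 5 of 33 tested members fell and 1 rose (median -0.03), with 2 lower without DMSO replicate 2 or DMSO replicate 3, 3 without ABBV-744 500 nM replicate 3 and 8 without ABBV-744 500 nM replicate 2. The decreases were led by KYNU, the kynureninase, which fell by 1.33 on the log2 scale (SE 0.19, edgeR adjusted p = 1.47e-05). TAT, a tyrosine aminotransferase, fell by 1.11, a call that held only in the fit without ABBV-744 500 nM replicate 2, with adjusted p from 0.0734 to 0.234 in the others. Of the drug metabolism and conjugation enzymes 7 of 30 fell and 3 rose (median 0.04), with 1 higher without DMSO replicate 1. After the GC correction 6 of these enzymes were lower and 6 higher. ADH4, an alcohol dehydrogenase, fell from 9.69, 8.06 and 11.8 CPM to 2.92, 1.95 and 2.32 CPM (log2 fold change -2.01, SE 0.32). SULT2A1, the sulfotransferase of steroids and bile acids, fell from 78.9, 75.4 and 78.1 CPM to 35.4, 30 and 39.5 CPM (log2 fold change -1.14, SE 0.12). Among glycolysis, gluconeogenesis and glycogen genes 5 of 33 fell and 4 rose (median 0.01), with 2 lower and 1 higher without DMSO replicate 2, 3 and 0 without DMSO replicate 3, and 4 and 1 without ABBV-744 500 nM replicate 3. SLC2A2, the liver glucose transporter GLUT2, fell 2.85-fold, from 57.3, 60.2 and 58.8 CPM to 23.4, 18.2 and 20 CPM (log2 fold change -1.51, SE 0.14, adjusted p = 3.57e-09). HK2, a hexokinase, fell by 0.62. Of the short-chain dehydrogenases related to DHRS2, 3 of 26 rose and 1 fell (median 0.09), with 5 higher without ABBV-744 500 nM replicate 1. DCXR, the dicarbonyl reductase, rose by 0.92 beside DHRS2, DHRS7B rose by 0.48 and HSD17B2 fell by 0.71. The DHRS7B call was lost without DMSO replicate 2, DMSO replicate 3 or ABBV-744 500 nM replicate 3, with adjusted p from 0.0565 to 0.0893.

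Cytokine, chemokine and EGF-family genes fell in the largest share of any list not taken from the study's figures, 12 of 21 tested members against 1 that rose, with a median of -0.53. Between 8 and 13 were lower when 1 library was left out. CCL20, a chemokine that draws CCR6-bearing lymphocytes, fell from 67, 65.6 and 72.3 CPM to 27.2, 25.1 and 23.2 CPM (log2 fold change -1.44, SE 0.13, edgeR adjusted p = 2.87e-09). CXCL8, a neutrophil chemokine, fell from 16, 23 and 27 counts to 3, 9 and 5 counts (log2 fold change -1.62, SE 0.40, adjusted p = 0.00579). LIF, a cytokine of the interleukin 6 family, fell by 0.99 (SE 0.16). AREG, a ligand of the EGF receptor, fell by 1.12, and its log2 fold change was -0.87 without DMSO replicate 1 (adjusted p = 0.105) and -1.08 without ABBV-744 500 nM replicate 3 (0.0702), where the call was lost. The member that rose was TGFB1, by 0.77, with an adjusted p of 0.0737 without DMSO replicate 2. The receptors IL1R1, IL1RAP, IL6R and IL6ST were among the members that fell, with log2 fold changes of -0.71, -0.71, -0.53 and -0.44. The call of IL1RAP was lost without DMSO replicate 3 (adjusted p = 0.0556) or ABBV-744 500 nM replicate 3 (0.0771), that of IL6R without the same libraries (0.0861 and 0.0961), and that of IL6ST without DMSO replicate 2 (0.0782) or DMSO replicate 3 (0.0618).

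Interferon, HLA and antigen processing genes were lower in 9 of 46 tested members and higher in 3, with a median of -0.04. The 9 became 3 without DMSO replicate 2, 5 without DMSO replicate 3 or ABBV-744 500 nM replicate 1, and 5 with DESeq2, and the 3 became 6 without ABBV-744 500 nM replicate 1 and 5 without ABBV-744 500 nM replicate 2. GBP2, an interferon-induced GTPase, fell by 1.14 on the log2 scale, a call lost without DMSO replicate 2 or 3 or ABBV-744 500 nM replicate 1 or 2 (adjusted p from 0.0613 to 0.114). ERAP2, an aminopeptidase that trims peptides for HLA class I, fell by 0.98 and kept its call whichever library was left out. HLA-E rose by 0.55 and B2M, the light chain of HLA class I, fell by 0.34, with an adjusted p of 0.0948 without DMSO replicate 2. Of cell junction, adhesion and keratin genes 10 of 36 fell and 1 rose (median -0.21). These became 4 and 0 without DMSO replicate 2, 5 and 0 without DMSO replicate 3 or ABBV-744 500 nM replicate 3, and 6 and 0 with DESeq2. KRT23, a type I keratin, fell from 87.2, 79.9 and 82.6 CPM to 27.8, 32.6 and 28.5 CPM (log2 fold change -1.49, SE 0.12, edgeR adjusted p = 4.73e-10). CLDN2 had 53 to 65 counts with DMSO and 9 to 14 with ABBV-744 500 nM.

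Histone genes rose in 28 of 56 tested members and fell in 2, with a median log2 fold change of 0.29. The 28 became 16 without DMSO replicate 2 and 18 without DMSO replicate 3, and the increases were mostly small. H1F0, a linker histone made outside S phase, rose from 284, 276 and 282 CPM to 522, 638 and 560 CPM (log2 fold change 1.03, SE 0.09, edgeR adjusted p = 1.11e-09). H1FX, another linker histone, rose by 0.98. HIST1H1D rose by 1.16 from 8 to 11 counts in DMSO, with overlapping groups, and its call was lost without DMSO replicate 2 or 3 or ABBV-744 500 nM replicate 1 or 3 (adjusted p from 0.0625 to 0.225). HIST1H2BM went against the list and fell from 62.2, 58.2 and 56 CPM to 28.1, 28.3 and 31.7 CPM (log2 fold change -1.0, SE 0.13). Histone genes are near-identical copies and reads that aligned to several places were not counted, so the values of single histone genes are uncertain. After a correction for GC content 25 histone genes were higher and 6 lower.

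Cell cycle genes mostly did not pass the test. DNA replication genes were higher in 7 of 51 and lower in 0 (median 0.09), with TK1 and ORC6 rising by 0.66 and 0.64, and mitosis and spindle genes were higher in 6 of 54 and lower in 0 (median 0.01), with FOXM1 rising by 0.50. The 6 mitosis genes became 3 without DMSO replicate 2 and 11 without ABBV-744 500 nM replicate 2. Cyclins, CDK inhibitors and G1/S regulators rose in 2 of 26 and fell in 2 (median -0.00), and 0 were called in either direction without DMSO replicate 2, DMSO replicate 3 or ABBV-744 500 nM replicate 3. CDKN1A, the p21 inhibitor of CDKs, fell by 0.37, a call lost without DMSO replicate 1, 2 or 3 or ABBV-744 500 nM replicate 3 (adjusted p from 0.0598 to 0.238). Cytosolic ribosomal protein genes rose in 7 of 81, near the share over all genes, and fell in 0 (median 0.08), the largest increase being that of RPL28, 0.38. All 7 calls were lost without DMSO replicate 2 or ABBV-744 500 nM replicate 3 (RPL28 adjusted p = 0.0825 and 0.0616), 1 gene was higher without DMSO replicate 3, 4 without DMSO replicate 1 or ABBV-744 500 nM replicate 2, and 16 without ABBV-744 500 nM replicate 1. After the GC correction 11 replication genes were higher and 1 lower, 7 mitosis genes higher and 1 lower, and 9 ribosomal protein genes higher and 3 lower. Of BCL2 family and death genes, 5 of 34 fell and 1 rose (median 0.03), with 2 lower without DMSO replicate 2 or DMSO replicate 3 and 1 without ABBV-744 500 nM replicate 3. MLKL, the effector of necroptosis, fell by 1.44 on the log2 scale (SE 0.33, edgeR adjusted p = 0.00272), and BCL2L11, which encodes the pro-apoptotic BIM, rose from 13.7, 11.6 and 10.3 CPM to 20.8, 21.8 and 22.7 CPM (log2 fold change 0.87, SE 0.18, adjusted p = 0.0013).

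Metallothionein genes, which encode small metal-binding proteins, rose in 4 of 12 tested members and fell in 0, with a median of 0.19, and 4 were higher whichever library was left out. MT2A rose 2.56-fold, from 103, 86.2 and 97.8 CPM to 215, 261 and 259 CPM (log2 fold change 1.36, SE 0.10, edgeR adjusted p = 4.18e-11). MT1X, MT1E and MT1G rose by 1.14, 0.89 and 0.73, and reads shared between these close paralogs were not counted. Heat shock and chaperone genes fell in 8 of 20 and rose in 2 (median -0.27). The 8 became 3 without DMSO replicate 2, DMSO replicate 3 or ABBV-744 500 nM replicate 3, and DESeq2 called 5 lower and 1 higher. HSPA13, a microsomal HSP70-like protein, fell from 38.5, 45.4 and 46.6 CPM to 23.1, 15 and 18.3 CPM (log2 fold change -1.21, SE 0.16), and HSPA5, the chaperone BiP of the endoplasmic reticulum, fell by 0.40. HSPA1A, an inducible HSP70, rose by 0.66, with an adjusted p of 0.0627 without DMSO replicate 2.

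TXNIP, the thioredoxin-interacting protein, rose from 31, 30 and 19 CPM to 50.3, 58.3 and 55.2 CPM (log2 fold change 1.04, SE 0.15, edgeR adjusted p = 1.35e-05). It was 1 of 2 increases among 16 tested members of the list of TXNIP, ARRDC4, sestrins and ATF4 targets, in which 2 fell (median -0.12). SLC7A11, the cystine transporter, fell by 1.17 (SE 0.19) and TRIB3, a pseudokinase induced by ATF4, by 0.78. NEAT1, the lncRNA that scaffolds paraspeckles, rose from 150, 174 and 143 CPM to 281, 310 and 333 CPM (log2 fold change 0.98, SE 0.10, adjusted p = 1.06e-08). Of the 16 genes of its list 3 rose and 2 fell (median -0.00), with 1 higher and 0 lower without DMSO replicate 3 or ABBV-744 500 nM replicate 3 and 2 and 0 without DMSO replicate 2, and NONO, a paraspeckle protein, rose by 0.37, a call lost without DMSO replicate 2, DMSO replicate 3 or ABBV-744 500 nM replicate 3 (adjusted p from 0.0646 to 0.0922). After the GC correction 5 genes of that list were higher and 0 lower. Over all lncRNAs, 17 of 330 tested were higher and 13 lower, both smaller shares than the 7.48% and 7.80% of all genes tested.

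In the list of EFR3B, the PI4KA complex and phosphatidylcholine synthesis, 5 of 21 tested members rose and 3 fell (median 0.14), with 2 higher without DMSO replicate 2, DMSO replicate 3 or ABBV-744 500 nM replicate 3. PCYT1B, which makes the activated choline for phosphatidylcholine, fell 2.93-fold, from 55.2, 53.5 and 51.9 CPM to 17.8, 18.6 and 18.3 CPM (log2 fold change -1.55, SE 0.14, edgeR adjusted p = 2.87e-09). DGKK, a diacylglycerol kinase, fell by 1.36 and DGKQ, another, rose by 0.78. Genes that the study names in its figures fell in 26 of 36 tested members and rose in 3, with a median of -0.95. That list was chosen by the study on BET inhibitor results in HepG2 cells, which may rest in part on libraries used here, so its count is not independent evidence of direction. Mitochondrially encoded genes were not among the symbols analysed here.

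**Figure D3:**
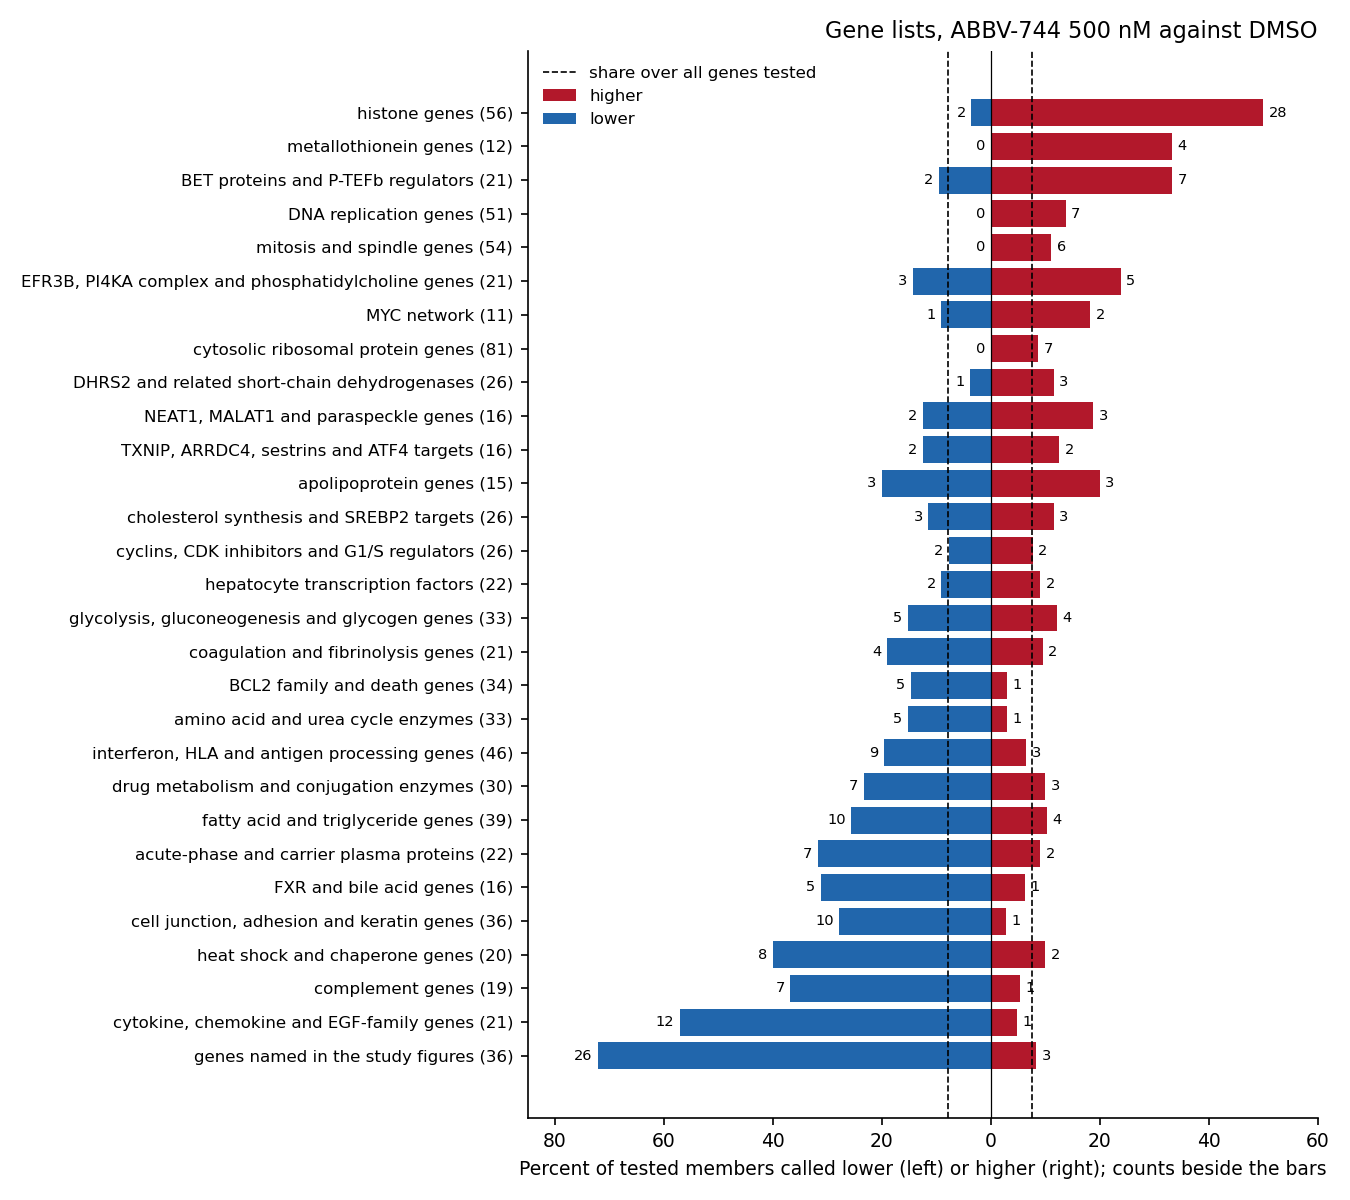
Percent of the tested members of each gene list that were, in the fit of all 6 libraries, lower (blue, left) or higher (red, right) at an adjusted p of at most 0.05, with the number of tested members in parentheses, the counts beside the bars, and dashed lines at the shares over all 11124 genes (7.80% lower, 7.48% higher). Histone genes reach furthest to the right (28 of 56), and the genes named in the study's figures (26 of 36) and the cytokine, chemokine and EGF-family genes (12 of 21) reach furthest to the left.

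The effect of dose was tested by comparing ABBV-744 500 nM with ABBV-744 50 nM. Of 10967 genes, 0 (0%) were higher and 3 (0.0274%) lower at an adjusted p of at most 0.05 with edgeR's quasi-likelihood test, and DESeq2 called 1 higher and 4 lower. At an unadjusted p under 0.05 there were 326 higher and 307 lower. The 95% interval of the log2 difference lay within -1 to 1 for 91.2% of the genes, and the median of its half-width was 0.37. These intervals are not adjusted for the number of genes tested. Differences above 0.37 could therefore also go uncalled, as did those of DHRS2 and EFR3B below. With the replicate number as a block, 180 genes were higher and 140 lower at 500 nM. Deviations of same-numbered 50 nM and 500 nM libraries from their group means correlated at 0.27, 0.37 and 0.05. Each 500 nM library correlated best with its own number, but the labels do not say that the numbers pair libraries. The number of genes called between doses thus depended on this choice.

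PA2G4, a binding partner of the receptor ERBB3 and of ribosomes, was 1 of the 3 genes lower at 500 nM than at 50 nM. On a scale set over all 24 libraries it had 206, 234 and 233 CPM at 50 nM and 124, 129 and 123 CPM at 500 nM, beside 264, 238 and 221 CPM in DMSO. The difference between doses was -0.85 on the log2 scale (95% interval -1.07 to -0.62, edgeR adjusted p = 0.0013). PXDC1 had 49.2, 52.8 and 55.6 CPM at 50 nM and 21.8, 26.9 and 25.6 CPM at 500 nM (difference -1.09, adjusted p = 0.00234), and PRRC1 89.8, 78.9 and 87.7 CPM and 50, 49 and 56.1 CPM (difference -0.73, adjusted p = 0.0346). In all 3 the doses did not overlap. Without ABBV-744 50 nM replicate 3 all 3 calls were lost, with adjusted p of 0.0788 for PA2G4, 0.0904 for PXDC1 and 0.678 for PRRC1. PRRC1 kept its call only without ABBV-744 50 nM replicate 2, of the 6 fits that leave out 1 library. With IFNg the doses overlapped in all 3 genes, and no test between doses was made there. Their mean CPM with IFNg at 50 nM and 500 nM were 86.9 and 91.7 (PA2G4), 18.4 and 20.8 (PXDC1) and 51.6 and 49.5 (PRRC1).

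The 3 marker genes did not pass edgeR's test between doses, and for DHRS2 this depended on the setting. DHRS2 had 7010, 7242 and 6832 CPM at 50 nM and 9923, 10912 and 10447 CPM at 500 nM, without overlap (difference 0.56, 95% interval 0.33 to 0.80, edgeR adjusted p = 0.089). DHRS2 was called higher at 500 nM in 7 of 10 alternatives, among them DESeq2 (0.57, adjusted p = 6.36e-07), no filter (0.57, 0.000102), GC correction (0.59, 0.000201) and the replicate block (0.56, 2.55e-16), and in 1 of the 6 fits that leave out 1 library, that without ABBV-744 50 nM replicate 2 (0.60, 0.00659). HEXIM1 had 68, 66.9 and 60.3 CPM at 50 nM and 93.9, 84.3 and 90.3 CPM at 500 nM (difference 0.45, 0.20 to 0.71, adjusted p = 0.431). GPAM had 76, 50.3 and 62.2 CPM and 55.2, 37.5 and 48.9 CPM, with overlapping doses (difference -0.41, -0.75 to -0.08, adjusted p = 0.775). Both were called in 2 of 10 alternatives, those with the replicate block, and in 0 of the 6 fits that leave out 1 library. Of the 38 genes past both thresholds, 12 had enough counts in these 6 libraries to be tested between doses and 0 were called, and without the filter all 38 were tested and 1, DHRS2, was called. The differences of the 12 ran from -1.37 to 0.04 in the 9 lower genes and from 0.29 to 1.33 in the 3 higher genes, EFR3B having the 1.33 (0.66 to 1.99, adjusted p = 0.287).

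Values against DMSO are given side by side for the other inhibitor groups, which share the 3 DMSO libraries and so are not independent of the comparison at 500 nM. Against DMSO, ABBV-744 50 nM had 979 genes (8.81%) higher and 1123 (10.1%) lower of 11116 tested, and ABBV-075 50 nM had 2225 (19.8%) higher and 2199 (19.6%) lower of 11244 tested. The log2 fold change of DHRS2 was 2.28 with ABBV-744 500 nM, 1.72 with ABBV-744 50 nM and 2.79 with ABBV-075 50 nM. For GPAM the values were -1.99, -1.57 and -3.09, for HEXIM1 0.74, 0.29 (adjusted p = 0.0816) and 1.41, and for NR1H4 -1.14, -1.09 and -3.83. EFR3B had 1.90, 0.57 (adjusted p = 0.315) and 4.22. MYC had -0.31, -0.19 (adjusted p = 0.224) and -0.73. PA2G4 had -0.94, -0.09 (adjusted p = 0.555) and -1.82, and NAMPT, named after its values were seen, had -1.26, -0.53 and -0.50. Doses of the compounds differ, and no test was made between ABBV-744 500 nM and ABBV-075 50 nM. The study's methods give a treatment time for ABBV-075 but none for ABBV-744, so treatment times may differ too. Of the 35 genes lower past both thresholds, 34 were tested at 50 nM, with a median log2 fold change of -1.40, and 35 with ABBV-075, with a median of -2.66; their median at 500 nM, the values that chose them, was -1.81.

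**Figure D4:**
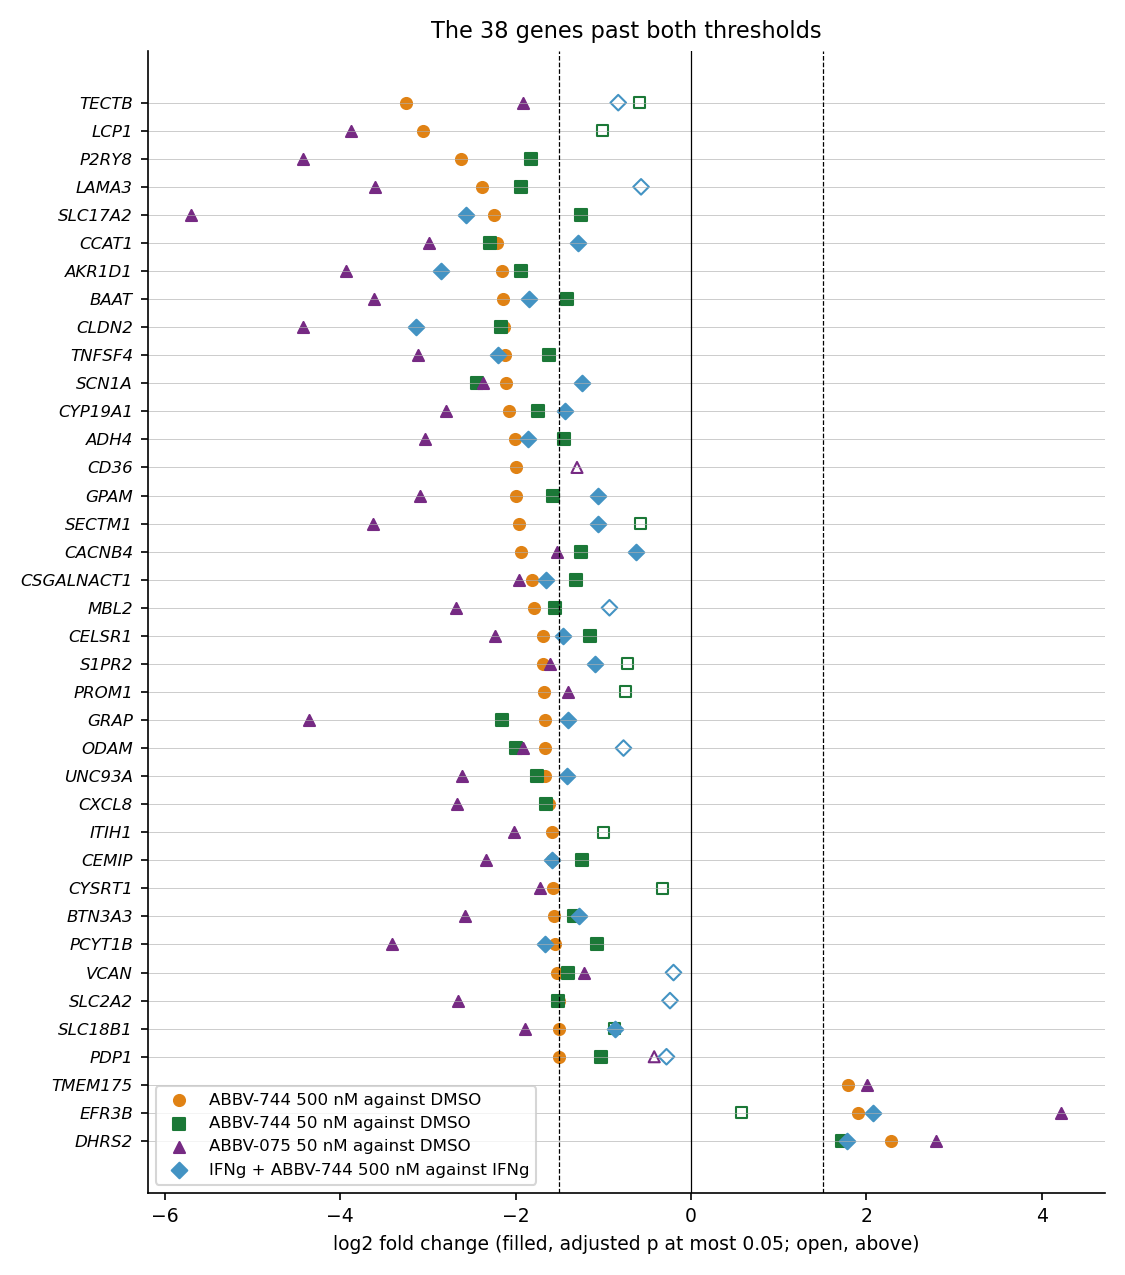
Log2 fold change of the 38 genes past both thresholds with ABBV-744 500 nM against DMSO (circles), beside ABBV-744 50 nM against DMSO (squares), ABBV-075 50 nM against DMSO (triangles) and IFNg + ABBV-744 500 nM against IFNg (diamonds); filled marks have an adjusted p of at most 0.05, and a gene without a mark had too few counts in that comparison. EFR3B has 4.22 with ABBV-075 against 1.90 with ABBV-744 500 nM, and SLC2A2 has -0.24 in IFNg against -1.51 without it.

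The response to ABBV-744 500 nM was also measured in cells given IFNg, in 6 libraries that share none with the comparison against DMSO. IFNg + ABBV-744 500 nM against IFNg had 2536 genes (22.9%) higher and 2534 (22.8%) lower of 11091 tested. These libraries differed by GC content more than those without IFNg: when genes were put in 10 bins by GC content, the median log2 fold change was 0.74 in the lowest bin and -0.16 in the highest, against -0.18 and 0.14 without IFNg. Of the 38 genes past both thresholds, 30 were tested with IFNg, all 30 had the same direction and 23 were called in that direction (24 after GC correction). DHRS2 rose by a log2 fold change of 1.78 (edgeR adjusted p = 2.08e-16) and GPAM fell by 1.06 (adjusted p = 3.02e-09). HEXIM1 rose by 0.58 (adjusted p = 0.000121), MT2A by 1.07 (adjusted p = 9.1e-11) and EFR3B by 2.07 (adjusted p = 0.00014). MYC fell by 0.60 (adjusted p = 1.45e-05).

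An interaction term over the 4 groups tested whether IFNg altered the effect of ABBV-744 500 nM. It was called higher for 2115 genes (18.5%) and lower for 1712 (15.0%) of 11428 tested, which became 864 and 1053 after GC correction. Among the smallest in adjusted p were GLUL and AHSG, with differences of -1.58 and -1.39 on the log2 scale (-1.64 and -1.01 after GC correction), and ROCK2, BRCA2 and HSP90AA1, with differences of 1.73, 2.46 and 1.60 (1.15, 1.55 and 1.60 after GC correction). Without IFNg these 5 genes had log2 fold changes between -0.24 and 0.08. Of the 38 genes past both thresholds, 37 were tested and 6 differed, 3 of them after GC correction. The 38 genes were chosen by large changes in libraries that also enter this test, which favours a smaller effect with IFNg.

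GC content went with the fold changes against DMSO. The longest transcript of the genes called higher had a median GC content of 55.2%, against 42.8% for those called lower and 47.6% for all genes tested, and 98.4% of the genes tested had a value. In the lowest of the 10 bins 4 were higher and 143 lower, and in the highest 146 were higher and 39 lower. A correction that removes this trend in each library gave 934 genes higher and 1059 lower, of which 1375 were among the 1700 calls without it, and the medians became 49.2% and 48.8%. All of DHRS2, GPAM, HEXIM1, NR1H4, CPB2, CCL20, MT2A, NEAT1 and SLC2A2 stayed called after correction, with log2 fold changes of 2.22, -1.86, 0.71, -1.01, -1.30, -1.24, 1.25, 1.05 and -1.34. Of the 38 genes, 33 stayed past both thresholds, and CXCL8, VCAN, SLC2A2, PDP1 and SLC18B1 fell below the fold threshold with values from -1.43 to -1.34. The part of RNA quality or library preparation in the GC trend was not tested.

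**Figure D5:**
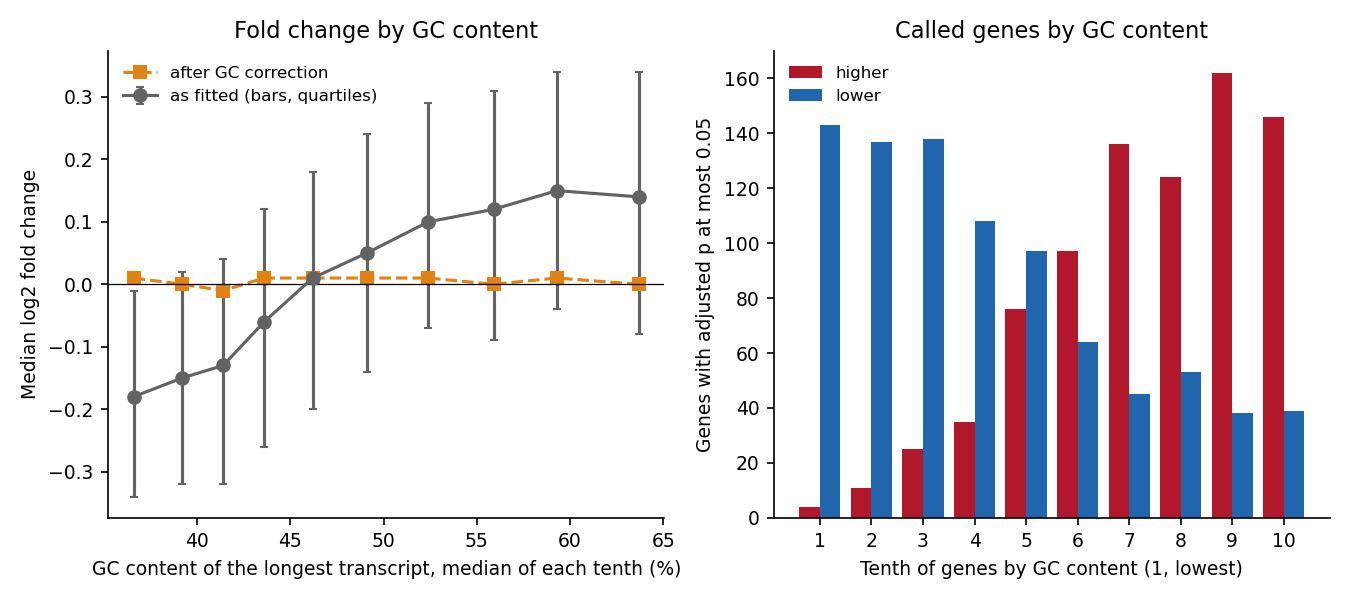
Left, median log2 fold change (ABBV-744 500 nM against DMSO) of genes in 10 bins by GC content of their longest transcript, as fitted (grey, with quartiles as bars) and after GC correction (orange). Right, numbers of genes higher (red) and lower (blue) at an adjusted p of at most 0.05 in each bin, which go from 4 higher and 143 lower in the lowest bin to 146 and 39 in the highest.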

How the data were processed

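Total RNA of HepG2 cells was depleted of ribosomal RNA and made into directional libraries by the authors. Per the submitters' processing notes, CASAVA 1.8.2, Trimmomatic 0.33, STAR 2.7.1 and DESeq2 were used with hg38, and which annotation was counted on is not given in the sources used here. The deposited files hold raw read counts per gene symbol in each library, without normalization, in columns for both strands and for each strand, and reads that align to several places are left out of them. Column 4, which counts reads on the strand of the gene, served here, and no per-sample column of another sample was present. Of 26475 symbols, 23161 were matched to GENCODE release 44 by symbol and 1339 through a RefSeq synonym.

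Genes were filtered with filterByExpr, scaled with TMM and tested with edgeR 4.0.16 (glmQLFit and glmQLFTest, R 4.3.3) using only libraries of the compared groups and no covariate. Genes with an adjusted p (Benjamini-Hochberg) no higher than 0.05 were called, and those also changed by 1.5 or more on the log2 scale were past both thresholds. The SE is the size of the log2 fold change over the square root of F, and intervals are at 95%. Where no library of a group passed 3 counts, the group was at the floor, which covers counting error only, since reads carry no molecular identifiers. CPM were computed after scaling over the 6 libraries, or over 24 where stated. Promoter windows are from RefSeq (GRCh38.p14), and only gene starts in that table were used. For the GC correction, log2 CPM (prior count 2) minus the gene's mean were smoothed on GC content by lowess (span 0.3), library by library, and the curves entered the fit as offsets.

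Alternatives were DESeq2 1.42.0, RLE, library size only, no filter, a minimum of 10 counts per library, a fit of all 24 libraries, the replicate block, column 2, GC correction with and without the block, and each library left out in turn. The fits were tested on simulated data. Replicate numbers gave no sign of pairing the ABBV-744 500 nM libraries with the DMSO libraries. Deviations of same-numbered libraries from their group means correlated at -0.19, -0.19 and -0.04 across genes. With 3 libraries per group this cannot exclude shared handling, on which the labels are silent.

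Named genes are the 3 markers, MYC, the 10 largest changes in each direction past both thresholds whose mean log2 CPM is 1 or more and whose groups do not overlap, the 3 leading genes in each direction of the dose comparison (by fold) and of the interaction (by adjusted p), and 2 to 4 members of each list, largest called changes first, beside genes whose call or role bears on a list. A few genes that these rules would name are not reported here. Members and lists were chosen with earlier results of these data known. Python 3.11.15, pandas 2.3.3, numpy 2.4.6, scipy 1.17.1 and matplotlib 3.10.9 were used for tables, exact tests and figures.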

Additional observations from a re-analysis of the deposited data

Results flagged for a closer look

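Of the 38 genes past both thresholds, 37 were tested for the interaction with edgeR, and 6 differed with and without IFNg. Over all 11428 genes tested, the interaction was called higher for 18.5% and lower for 15.0%. All 6 effects were smaller with IFNg. The 38 genes were chosen by large changes in libraries that also enter this test, which favours a smaller effect with IFNg. GPAM had log2 fold changes of -1.99 without IFNg and -1.06 with it (difference 0.95, SE 0.18, adjusted p = 9.69e-05, or 0.48 with adjusted p = 0.00836 after GC correction). SLC2A2 had -1.51 without and -0.24 with IFNg (difference 1.29, SE 0.19, adjusted p = 5.63e-06, or 0.48 with 0.0431 after GC correction). LAMA3 had -2.38 and -0.57, at 1 to 40 counts per library without IFNg (difference 1.83, SE 0.59, adjusted p = 0.0163, or 2.12 with 0.0082 after GC correction). The differences of DHRS2 (-0.48, adjusted p = 0.000368), CACNB4 (1.33, adjusted p = 0.00556) and TECTB (2.43, adjusted p = 0.0291) were not called after GC correction, with values of -0.19, 0.35 and 2.19 and adjusted p of 0.0993, 0.579 and 0.0833. The IFNg libraries carry a GC trend opposite to that of the libraries without IFNg, and its part in these differences beyond the correction was not tested.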

How the results depend on the processing

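Of 4170 log2 fold changes of 264 genes recomputed against DMSO, 0 reversed and 676 lost their call. These genes were all called in the fit of the 6 libraries, and the refits use all or most of the same libraries. Reversals were therefore unlikely from the start. Against DMSO, DESeq2 called 492 genes higher and 490 lower, with 3 higher and 26 lower past both thresholds. With DESeq2, 63 of the 256 named genes that had a value lost their call. Scaling by library size only gave 475 higher and 1067 lower. Past both thresholds there were 12 higher and 74 lower without a filter, 1 and 5 with at least 10 counts in every library, which removes genes that fell to few counts, and 10 higher with all 24 libraries in the fit. Leaving out 1 library gave 371 to 995 genes higher and 422 to 1008 lower, and 6 to 11 higher and 37 to 63 lower past both thresholds (63 without ABBV-744 500 nM replicate 2, 59 without replicate 1). Between doses, where 0 were higher and 3 lower, there were 1 and 4 with DESeq2, 1 higher with library size only, 2 and 11 without a filter, 1 and 8 with all 24 libraries, and 1 and 15 with GC correction. Without 1 library the counts were 0 to 1 higher and 0 to 9 lower, with 0 lower without ABBV-744 50 nM replicate 3. The replicate block gave 577 higher and 654 lower against DMSO, 3 and 35 past both thresholds, and 180 and 140 between doses, or 54 and 88 with GC correction and the replicate block. Same-numbered libraries of the 50 nM and 500 nM groups correlated at 0.27, 0.37 and 0.05, and each 500 nM library correlated best with its own number, a hint from the data and not from the design. With IFNg the block gave 2716 and 2809, and leaving out 1 library gave 2133 to 2602 higher and 1976 to 2418 lower. The interaction had 864 higher and 1053 lower with GC correction, 827 and 999 with GC correction and the replicate block, 1095 lower with library size only, and 1775 to 2308 higher and 1133 to 1767 lower without 1 library (1133 without DMSO replicate 2). The cause of these moves was not tested, except that a filter or a left-out library changes the genes or libraries tested. At 3321988 to 4304103 reads on genes per library, counting error limits genes of few counts, which most of the 38 genes are.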

Other observations

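Several genes outside the lists, named after their values were seen, changed at well-measured levels between ABBV-744 500 nM and DMSO. POLR2A, the largest subunit of RNA polymerase II, rose from 112, 98.9 and 93.9 CPM to 228, 251 and 242 CPM (log2 fold change 1.24, SE 0.10, edgeR adjusted p = 8.25e-11), and ASF1B, a histone chaperone, rose by 1.23 (SE 0.13). TST, a sulfurtransferase, rose by 1.25 (SE 0.13). Just outside the fold threshold were the decreases of KRT23 and CPB2, at -1.49 and -1.47, and just past it were SLC2A2, PDP1 and SLC18B1, each at -1.51.

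CPLX2, a complexin of vesicle fusion, fell from 368, 348 and 334 CPM to 138, 148 and 130 CPM (log2 fold change -1.34, SE 0.09, adjusted p = 5.08e-12). NAMPT, the rate-limiting enzyme of NAD salvage, fell from 43.6, 47.4 and 42.8 CPM to 16.7, 19.5 and 19.8 CPM (log2 fold change -1.26, SE 0.15), and SGK1, a kinase induced by serum and glucocorticoids, fell by 1.28 (SE 0.15). GCNT3, a glycosyltransferase of mucin-type glycans, fell by 1.40 (SE 0.20). The groups did not overlap in POLR2A, CPLX2 or NAMPT, for which CPM are given here.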
